A study of Mus musculus with 12 samples.

Results

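Hearts of DYRK1B transgenic mice (DYRK1B-Tg) were compared with hearts of wild-type (WT) littermates at postnatal day 56 (P56), an age that the labels also give as 8 weeks. The comparison used 6 of the 12 libraries of the series, the 3 titled D1-Tg P56 and the 3 titled WT P56. The other 6 libraries are labelled as hearts of both genotypes at P3 and served to estimate the spread. All mice are C57BL/6, and no other allele or agent is named for either group. The transgene holds full-length mouse DYRK1B cDNA behind the alpha-myosin heavy chain promoter, which works in heart muscle cells, so the other cells of these hearts carry the construct without being its intended site of expression. How many transgenic lines were used, the sex of the mice and the time of day of collection are not given in the sources used here. Whole hearts were frozen and RNA was extracted, so fewer cells of a type and less RNA per cell cannot be told apart in any value below. Whether a library came from 1 heart or from several is not stated, and each is taken here as 1 heart. The p-values measure only the spread between these libraries.

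Of 18444 genes listed, 14212 passed the filter on low counts and were tested. Levels are in CPM, counts scaled to the library total and for library composition by edgeR, and a value for each heart is given in the order of replicates 1, 2 and 3. A gene was called when its adjusted p in edgeR's quasi-likelihood test was under 0.05, and all adjusted p-values below come from that test over the 14212 genes. By this rule 2008 genes (14.1%) rose and 1640 (11.5%) fell, so that 25.7% of all genes tested were called. At least a 2-fold change was fitted for 593 of the genes that rose and 210 of those that fell. The groups of 3 hearts did not overlap for 40.6% of all genes tested. These shares are the background against which the gene lists below are to be read, and the median log2 fold change of all genes tested was -0.003.

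DYRK1B belongs to a family of kinases that phosphorylate themselves on tyrosine as they are made and other proteins on serine and threonine. It is abundant in skeletal and heart muscle and is known from resting cells, where it favours exit from the cell cycle, and from the differentiation of skeletal muscle. Heart muscle cells meet a lasting load or stress with a set of known responses: they change their ion channels, return to gene programs of the fetal heart and release peptides and growth factors that act on neighbouring fibroblasts and vessels. Dyrk1b itself (gene ID 13549) was read first. It stood at 95.04, 105 and 90.6 CPM in the WT hearts and at 596, 929 and 871 CPM in the DYRK1B-Tg hearts, without overlap (log2 fold change 3.04, SE 0.15, adjusted p = 2.37e-07). Reads of the cDNA and of the animals' own gene fall on the same entry, and the values go with the labels at P56. At P3 Dyrk1b stood at 78.1, 76.2 and 71.6 CPM in WT libraries and 93.1, 77.6 and 83.4 CPM in those labelled DYRK1B-Tg, which overlap, so Dyrk1b does not part the P3 libraries by their labels.

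The DYRK1B-Tg hearts differed from each other about as much as the WT hearts did for most genes, but replicate 1 stood apart. Over 9343 genes with at least 10 CPM, the median standard deviation (SD) of log2 CPM was 0.094 in WT and 0.11 in DYRK1B-Tg hearts. In a principal component analysis of the 6 hearts, the leading component (53.8% of the variance) parted the genotypes, with WT between -35.2 and -33.5 and DYRK1B-Tg at 45.9, 24.8 and 32.5. The next component (16.8%) set DYRK1B-Tg replicate 1 at -34.3 against 17.6 and 25.5 for replicates 2 and 3. Of the genes that rose, 50.6% had their highest DYRK1B-Tg value in replicate 1 and 15.9% in replicate 2. Of those that fell, 54.8% were lowest in replicate 1 and 17.9% in replicate 2. Dyrk1b had its lowest DYRK1B-Tg value in replicate 1. The sum of 10 epicardial marker genes was 67.6 CPM in replicate 1 and 11.6 to 17.4 CPM in the other 5 hearts. Without replicate 1 the test called 1642 genes higher and 1365 lower. All 6 hearts carried the Y-linked transcript Ddx3y (67.6 to 76.5 CPM in WT and 56.9 to 66.4 CPM in DYRK1B-Tg hearts), while the P3 libraries are mixed in this respect.

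Transcripts of rod photoreceptors of the retina were present in the DYRK1B-Tg libraries and nearly absent from the WT libraries at P56. The sum over 10 rod genes was 0.482, 0.638 and 0.901 CPM in WT and 15.01, 12.4 and 9.32 CPM in DYRK1B-Tg hearts. Gnat1, the rod transducin subunit, stood at 0.0964, 0.0912 and 0.1 CPM in WT and 5.16, 4.25 and 2.44 CPM in DYRK1B-Tg hearts (adjusted p = 0.00388; 3 counts against 132 over the groups, a ratio of 41.0 per library size with an exact 95% interval of 13.7 to 201 for counting error only). Of the 10 genes, 7 rose (Gnat1, Rbp3, Prph2, Pdc, Nrl, Tulp1 and Rcvrn) and 3 were not called (Sag, Pde6a and Pde6b), though DESeq2 called these 3 as well. The calls of Nrl, Pdc and Rcvrn were each lost without 5 or more of the 6 hearts, left out singly. In the P56 libraries alone Pdc, Nrl, Tulp1, Rcvrn, Pde6a and Pde6b did not pass the filter on low counts. Their tests therefore depend on including the P3 libraries. The P3 libraries held the same transcripts under both labels, with sums of 6.35 to 27.2 CPM in WT and 13.4 to 43.97 CPM in libraries labelled DYRK1B-Tg. These genes were chosen after their values were seen, and the source of their transcripts was not tested.

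The 35 gene lists differed widely in the share of their members that were called, from 11.1% of the ribosomal proteins to 61.5% of the heat shock proteins and co-chaperones. Members called higher outnumbered those called lower by the widest margin among genes of the cytoskeleton (42 against 5 of 123 tested), the heat shock list (28 against 4 of 52) and the TGF-beta family and its partners (29 against 7 of 69). Potassium channels leaned the other way, with 6 higher and 15 lower of 58. Of 53 genes of antigen presentation and the interferon response 1 rose and 7 fell. Their share called, 15.1%, lay below the 25.7% of all genes tested. Proteins of the ribosome (9 called of 81), genes of the ubiquitin system (11 of 69) and of the cell cycle (14 of 81) were also called less often than that. The lists were chosen with earlier results of these data known, so their counts are descriptions and no list was tested as a set.

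**Figure D1:**
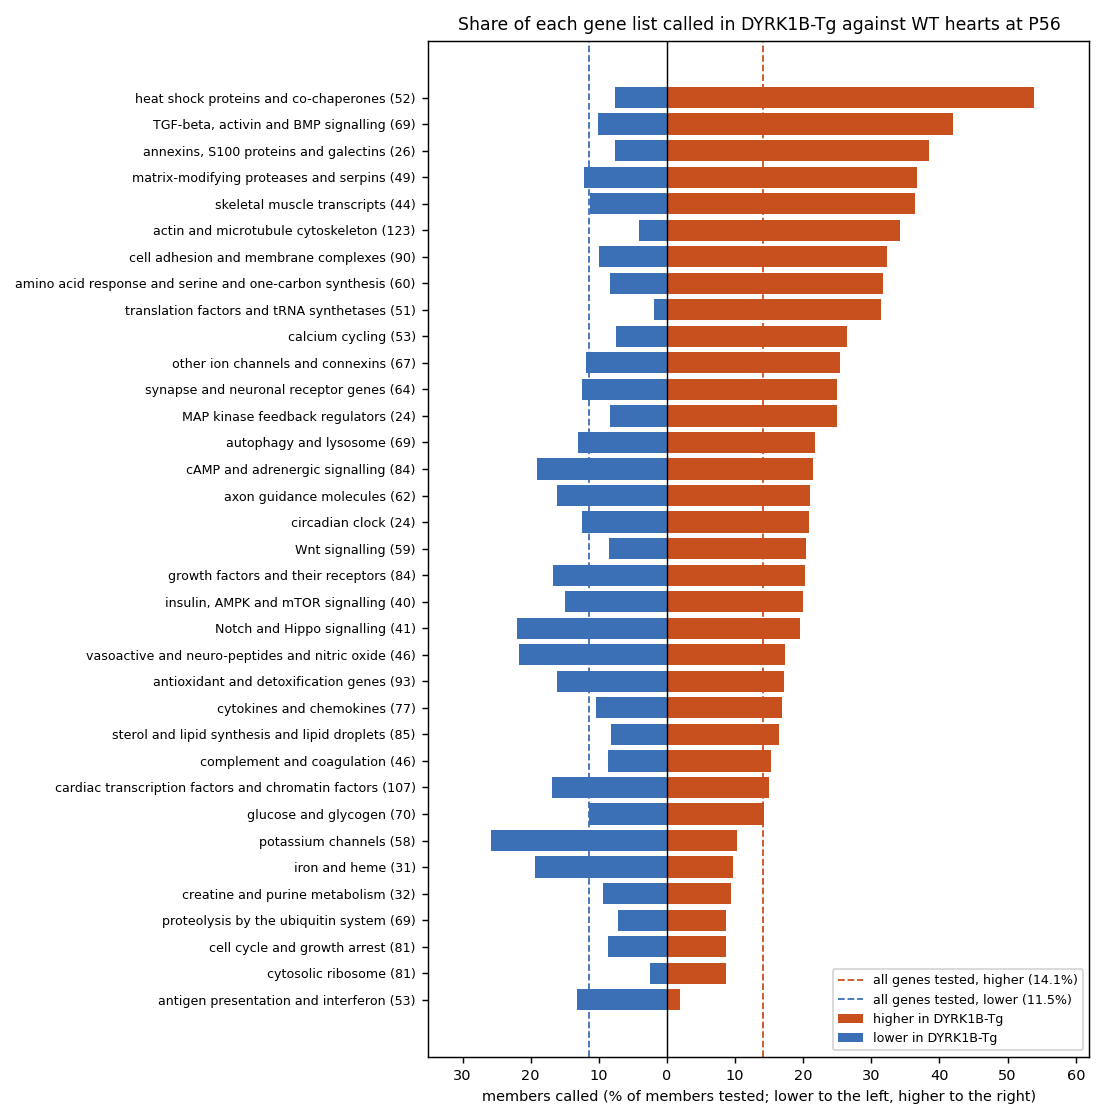
Share of the members of each of 35 gene lists called higher (bars to the right) or lower (bars to the left) in DYRK1B-Tg against WT hearts at P56, in percent of the members tested, whose number is in parentheses. Dashed lines mark the shares over all genes tested, 14.1% higher and 11.5% lower, and the heat shock list reaches farthest to the right.

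Heat shock proteins keep other proteins from clumping or refold them, and their genes are switched on together by heat shock factors, which bind inverted repeats of the bases GAA in promoters. Of the 52 heat shock proteins and co-chaperones tested, 28 rose, 4 fell and 20 were not called (61.5% called against 25.7% of all genes tested), with a median log2 fold change of 0.32. Promoters of 43 of the 52 were found in RefSeq's GRCm38.p6 annotation. They were searched over the 250 bases before the transcript start for 2 neighbouring units of this repeat, written TTCNNGAA or GAANNTTC, on both strands. A match was present in 10 of 24 members called higher, in 0 of 4 called lower and in 3 of 15 not called, against 12.2% of all genes tested that have a promoter there. A match is a stretch of letters and shows no binding. The longer form with 3 units (TTCNNGAANNTTC or GAANNTTCNNGAA) was found in 1 of the 24, Dnajb6, and in 0.472% of all genes tested. Hspa1a and its near-identical copy Hspa1b both count among the 10. Of members described next and called higher, Hspa1l, Hspb7, Bag2 and Bag3 had no 2-unit match. No promoter was found for Hspa8 and Hsp90aa1. The 4 promoters below were picked as examples with a match. Each is given 5′ to 3′ on the strand of its gene and with the 2-unit matches in capitals. They lie at chr17:34972157-34972406 (minus strand), chr5:149636337-149636586 (minus strand), chr3:152193846-152194095 (minus strand) and chr5:135887669-135887918 (plus strand).
Hspa1a: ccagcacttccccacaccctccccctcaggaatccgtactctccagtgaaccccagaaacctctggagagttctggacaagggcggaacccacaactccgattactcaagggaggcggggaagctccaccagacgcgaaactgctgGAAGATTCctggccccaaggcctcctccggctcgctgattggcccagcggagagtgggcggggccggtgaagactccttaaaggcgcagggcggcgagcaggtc
Hsph1: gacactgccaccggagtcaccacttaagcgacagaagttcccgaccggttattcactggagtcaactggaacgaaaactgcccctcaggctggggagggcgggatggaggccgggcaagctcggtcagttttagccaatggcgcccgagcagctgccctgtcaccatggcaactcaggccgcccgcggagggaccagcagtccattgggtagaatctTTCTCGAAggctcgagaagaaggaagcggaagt
Dnajb4: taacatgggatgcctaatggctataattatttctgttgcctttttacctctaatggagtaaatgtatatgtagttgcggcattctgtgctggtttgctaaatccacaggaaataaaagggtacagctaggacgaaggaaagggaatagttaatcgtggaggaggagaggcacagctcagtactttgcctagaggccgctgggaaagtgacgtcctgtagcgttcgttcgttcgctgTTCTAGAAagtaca
Hspb1: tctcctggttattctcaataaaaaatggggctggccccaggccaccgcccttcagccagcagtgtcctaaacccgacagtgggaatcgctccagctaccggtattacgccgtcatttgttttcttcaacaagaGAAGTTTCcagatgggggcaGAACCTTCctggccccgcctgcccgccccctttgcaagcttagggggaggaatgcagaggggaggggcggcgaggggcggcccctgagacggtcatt

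Inducible members of the 70-kDa family had the highest fold changes of the list. Hspa1a stood at 4.92, 4.83 and 4.9 CPM in WT and 48.3, 22.3 and 104 CPM in DYRK1B-Tg hearts (log2 fold change 3.57, SE 0.47, adjusted p = 0.000196). The groups did not overlap, but the DYRK1B-Tg hearts ranged widely, with the lowest value in replicate 2 and the highest in replicate 3, and without replicate 3 the log2 fold change was 2.83. Its near-identical copy Hspa1b rose with it (4.53, 6.75 and 3.7 CPM in WT and 30.5, 12.2 and 40.5 CPM in DYRK1B-Tg hearts), and reads may be split between the copies in a way that the files do not record. Hspa1l, the third gene of that cluster, rose by 2.43 on the log2 scale (8.87, 9.94 and 9.61 CPM in WT and 55.7, 43.02 and 54.8 CPM in DYRK1B-Tg hearts), and 71.9% of its exonic bases overlap an antisense gene. Hspa8, the constitutive member, rose by 0.7 from a level of 2067 ± 136 CPM (SD, n = 3).

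Chaperones of other families rose as well. Hsp90aa1, the inducible HSP90, stood at 117, 113 and 136 CPM in WT and 378, 219.9 and 301 CPM in DYRK1B-Tg hearts (log2 fold change 1.29, SE 0.16, adjusted p = 0.000108). Hsph1, which serves HSP70 as a nucleotide exchange factor, rose by 0.94 (SE 0.12) and Dnajb4, an HSP70 partner, by 1.16 (SE 0.08). Dnajb4 stood at 119, 138 and 124 CPM in WT and 277, 258 and 313 CPM in DYRK1B-Tg hearts. Bag3, a co-chaperone that keeps the Z-disc of muscle in repair, rose by 0.52, and the nucleotide exchange factor Bag2 by 0.8. Among the 8 small heat shock proteins 5 rose. Hspb6 stood at 2146, 1966 and 2041 CPM in WT and 4722, 4704 and 5021 CPM in DYRK1B-Tg hearts (log2 fold change 1.23, SE 0.12, adjusted p = 1.5e-05), Hspb1 rose by 1.13 and the heart and muscle member Hspb7 by 0.8. Cryab, the most abundant of those not called, stood at 1909 to 2266 CPM in WT and 2196 to 2320 CPM in DYRK1B-Tg hearts. Of the 4 members that fell, Hspa12b and Dnajc7 did so by 0.42 and 0.36. Hsf1, the main heat shock factor, was not called (50.8 to 51.5 CPM in WT and 51.7 to 55.5 CPM in DYRK1B-Tg hearts). A list of 17 immediate early and handling genes had 5 members higher and 1 lower, and its summed level was 668 to 742 CPM in WT and 849 to 1035 CPM in DYRK1B-Tg hearts. Its part in the heat shock result was not tested.

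**Figure D2:**
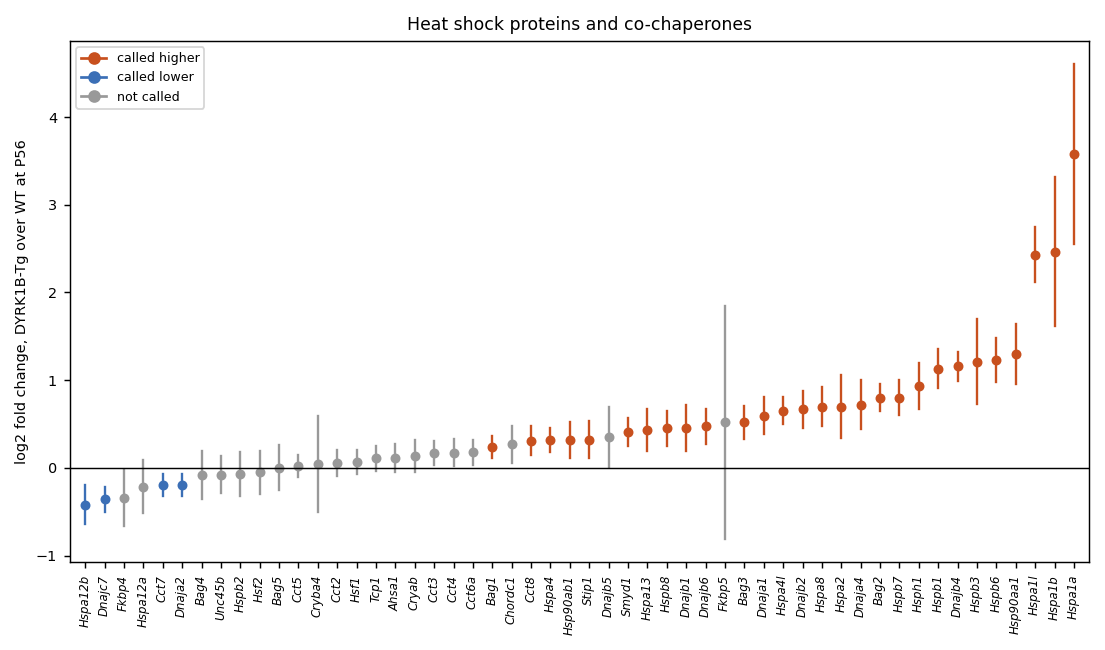
Fitted log2 fold change of DYRK1B-Tg over WT at P56 (vertical axis) for each of the 52 heat shock proteins and co-chaperones tested (horizontal axis, in order of the value), with vertical lines for the unadjusted 95% interval of the fit. Orange genes were called higher (28), blue genes lower (4) and grey genes were not called (20), and Hspa1a, Hspa1b and Hspa1l lie at the upper end.

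Potassium channels carry the currents that end the action potential and hold the resting potential. Of 58 tested, 6 rose and 15 fell (36.2% called), and among 10 inward rectifiers 2 rose and 5 fell. Kcnip2, the subunit that the fast transient outward current of the ventricle depends on, stood at 357, 359 and 328 CPM in WT and 118, 182 and 147 CPM in DYRK1B-Tg hearts (log2 fold change -1.22, SE 0.14, adjusted p = 7.7e-05). Its pore partners were not called: Kcnd2 stood at 31.7, 30.01 and 22.6 CPM in WT and 10.5, 19.6 and 21.3 CPM in DYRK1B-Tg hearts (adjusted p = 0.0516), without overlap, and Kcnd3 at 19.7 to 22.1 and 18.4 to 21.5 CPM. Kcnd2 was called lower by DESeq2 (adjusted p = 0.0294), and by edgeR without WT replicate 3 (0.0434) and without DYRK1B-Tg replicate 3 (0.0347). It was also called lower by edgeR with RLE size factors (adjusted p = 0.0484) and with no filter on low counts (0.0492). Kcnj2, which carries most of the inward rectifier current of the ventricle, stood at 59.9, 59.3 and 56.6 CPM in WT and 30.1, 22.8 and 30.5 CPM in DYRK1B-Tg hearts (log2 fold change -1.07, SE 0.14, adjusted p = 0.000146). Kcnh2, the pore of the rapid delayed rectifier, fell by 0.73 on the log2 scale, with all 3 DYRK1B-Tg hearts (96.7 to 109.8 CPM) below the WT hearts (165 to 173 CPM). Kcnj5, a subunit of the channel opened by acetylcholine, fell by 0.93, and its partner Kcnj3 was not called (118 to 134 CPM in WT and 66.7 to 84 CPM in DYRK1B-Tg hearts). However, Kcnj3 was called lower by DESeq2 (adjusted p = 0.0349) and by edgeR in the P56 libraries alone (adjusted p = 0.00216). Another gene overlaps 31.1% of its exonic bases.

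Subunits of channels closed by ATP fell too. Kcnj8 fell by 0.87 and Abcc9, its regulatory partner, by 0.64, from 586 ± 51.1 to 377 ± 62.95 CPM (SD, n = 3). Both are also markers of pericytes and smooth muscle, and that list of 11 had 2 members higher and 6 lower, with a summed level of 1842 to 1881 CPM in WT and 1066 to 1395 CPM in DYRK1B-Tg hearts. The part of these cells in the result was not tested. Against the trend of the list, the inward rectifier Kcnj14 stood at 2.51, 1.92 and 1.9 CPM in WT and 19.7, 10.98 and 10.7 CPM in DYRK1B-Tg hearts (log2 fold change 2.71, SE 0.27, adjusted p = 2.63e-05), and Kcne1, an accessory subunit of the slow delayed rectifier, rose by 1.03.

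Pacemaker channels open on hyperpolarisation and are known from the sinus node. Hcn4 rose by 0.66 (adjusted p = 0.0309), from 12.03 ± 0.112 to 18.97 ± 4.91 CPM (SD, n = 3), a call lost without any 1 WT heart or without DYRK1B-Tg replicate 2 or 3 (adjusted p = 0.0857 to 0.13), while Hcn2 and Hcn3 were not called. A list of 10 conduction system genes, which holds some of these genes, had 3 members higher and 1 lower (2 called without WT replicate 1, WT replicate 2 or DYRK1B-Tg replicate 2). For 10 genes of atrial muscle 3 rose and 1 fell (2 called without WT replicate 1 or 2), and the sum was 913 to 965 CPM in WT and 1960 to 2872 CPM in DYRK1B-Tg hearts. The part of conduction or atrial tissue in the Hcn4 result was not tested.

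Of 11 sodium channel genes 3 rose and 1 fell, and of 15 calcium channel genes 3 rose and 1 fell. The T-type calcium channel Cacna1h, a gene of the fetal ventricle, stood at 11.4, 11.3 and 13.2 CPM in WT and 22.4, 28.3 and 29.1 CPM in DYRK1B-Tg hearts (log2 fold change 1.15, SE 0.16, adjusted p = 0.000238). Cacna1c, the L-type channel of the adult ventricle, was not called (332 to 379 CPM in WT and 335 to 341 CPM in DYRK1B-Tg hearts). Gja1, the main ventricular gap junction protein, was not called either, with 308, 311 and 252 CPM in WT and 200.3, 181 and 308 CPM in DYRK1B-Tg hearts, but it was called lower without DYRK1B-Tg replicate 3 (adjusted p = 0.00171). The chloride channel protein Clic5 rose by 0.97 from a level of 411 ± 16.9 CPM, and Panx1, which forms channels that release ATP, by 1.81 from 2.28 ± 0.689 CPM (SD, n = 3).

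**Figure D3:**
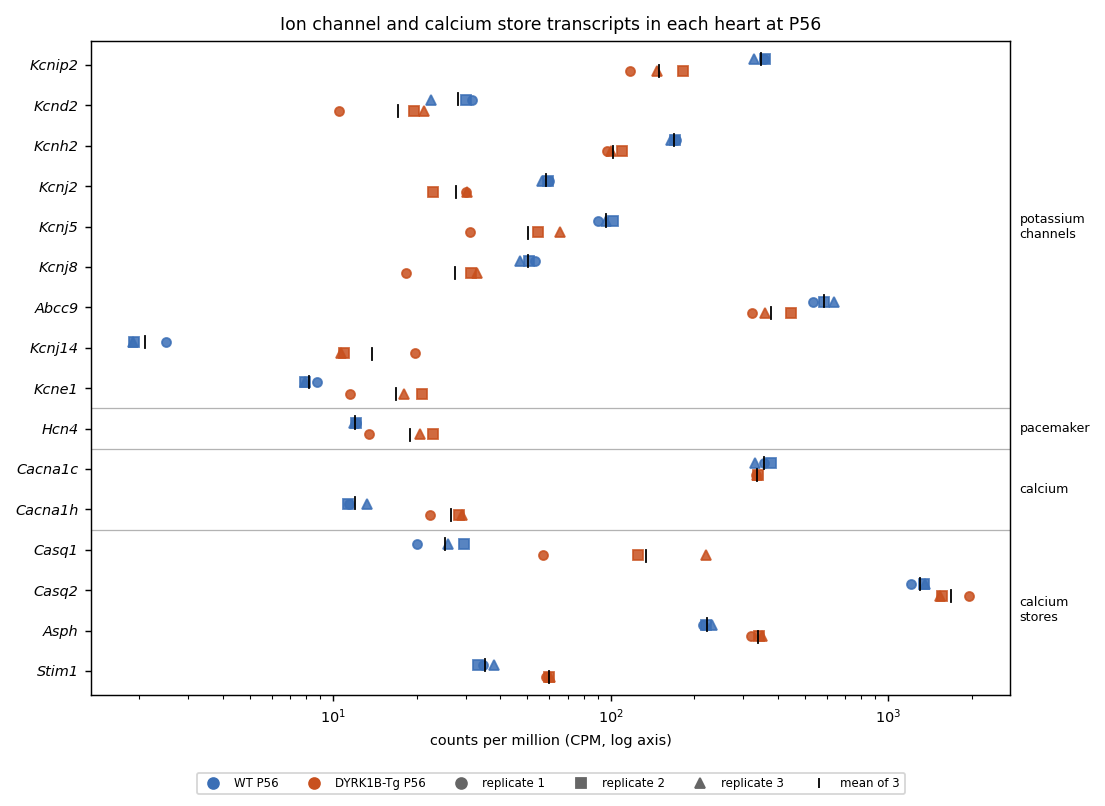
Level in CPM (horizontal log axis) of 16 ion channel and calcium store genes in each WT (blue) and DYRK1B-Tg (orange) heart at P56, with a symbol per replicate and a black tick at the mean of 3. Kcnip2, Kcnh2 and Kcnj2 lie lower and Kcnj14 and Casq1 higher in the DYRK1B-Tg hearts, while Cacna1c overlaps.

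Genes of calcium cycling rose more often than they fell. Of 53 calcium cycling genes 14 rose and 4 fell, and without WT replicate 1 the test called 11 of these 53. Casq1, the calsequestrin of skeletal muscle, stood at 20.1, 29.6 and 26.02 CPM in WT and 57.3, 125 and 220.5 CPM in DYRK1B-Tg hearts (log2 fold change 2.41, SE 0.40, adjusted p = 0.000988), with its lowest DYRK1B-Tg value in replicate 1. Casq2, the cardiac form, rose by 0.37 from 1307 ± 81.1 CPM (SD, n = 3), a call lost without WT replicate 1 (adjusted p = 0.0803) or DYRK1B-Tg replicate 1 (adjusted p = 0.072). Asph, whose locus also encodes the store protein junctin, stood at 215, 219.9 and 231 CPM in WT and 321, 344 and 350.4 CPM in DYRK1B-Tg hearts (log2 fold change 0.61, SE 0.06, adjusted p = 2e-05). Sarcalumenin (Srl), a calcium-binding protein of the same store, rose by 0.47, and the store sensor Stim1 by 0.76. Among genes that fell were triadin (Trdn, by 0.34) and the counter-ion channel Tmem38a (by 0.29). Phospholamban (Pln), the brake of the calcium pump, was not called at 8007 to 8915 CPM in WT and 6884 to 7727 CPM in DYRK1B-Tg hearts, and 64.7% of its exonic bases overlap another gene.

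Signalling through cAMP, the messenger of adrenergic stimulation, was called in 40.5% of 84 members, with 18 higher and 16 lower. Of 17 receptors 1 rose and 1 fell. Adrb1, the main adrenergic receptor of heart muscle cells, was not called (31.5, 25.5 and 18.2 CPM in WT and 17.6, 20.4 and 29.2 CPM in DYRK1B-Tg hearts). Gnao1, the G protein subunit of the Go class, stood at 37.2, 37.9 and 42.3 CPM in WT and 159.7, 167 and 189 CPM in DYRK1B-Tg hearts (log2 fold change 2.13, SE 0.19, adjusted p = 1.2e-05). Among the cyclases, Adcy7 rose and Adcy8 fell: Adcy7 stood at 20.5, 25.4 and 16.8 CPM in WT and 65.8, 54.6 and 68.4 CPM in DYRK1B-Tg hearts and Adcy8, near the limit of detection, at 1.25, 2.01 and 1.3 CPM in WT and 0.184, 0.266 and 0.261 CPM in DYRK1B-Tg hearts. Popdc3, a cAMP-binding membrane protein, rose by 1.3 (SE 0.10), and its partner Bves by 0.6. Of 18 phosphodiesterases 4 rose and 4 fell (5 called without WT replicate 3). Among them Pde8a, Pde7b and Pde1c rose by 0.93, 0.74 and 0.76, and Pde7a fell by 0.32. The receptor kinase Grk5, which dampens receptor signalling, rose by 0.97, and the kinase A regulatory subunit Prkar1a by 0.64, both with the highest value in DYRK1B-Tg replicate 1. The regulators of G protein signalling Rgs5 and Rgs7 fell by 0.66 and 1.36, and Rgs5 is also a pericyte marker.

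Among vasoactive peptides and nitric oxide genes 8 rose and 10 fell of 46. The sharpest changes were in a ligand and an enzyme: Edn3, an endothelin, rose by 5.42 (2.02, 2.19 and 2.6 CPM in WT and 141, 71.2 and 79.9 CPM in DYRK1B-Tg hearts), and Nos1, the neuronal nitric oxide synthase, by 4.98 (0.868, 0.547 and 0.3 CPM in WT and 12.8, 21.1 and 21.2 CPM in DYRK1B-Tg hearts). Their relatives moved little: Edn1 (7.5 to 8.39 and 8.59 to 12.02 CPM) and the endothelial synthase Nos3 (47.9 to 59.7 and 43.7 to 52.9 CPM; 32.3% of its exonic bases overlap another gene) were not called. Ace, which makes angiotensin II, stood at 147, 143 and 149 CPM in WT and 399, 315 and 329.7 CPM in DYRK1B-Tg hearts (log2 fold change 1.25, SE 0.18, adjusted p = 0.000348). Its receptor Agtr1a fell by 0.76, from 63.1 ± 0.729 to 37.3 ± 2.6 CPM (SD, n = 3). Both subunits of soluble guanylyl cyclase, the receptor of nitric oxide, fell (Gucy1a1 by 0.76 and Gucy1b1 by 0.74), while Prkg1, the kinase that cGMP activates, rose by 0.92. Caveolin 1 (Cav1) fell by 0.59 with no overlap of the groups. The peptides neuromedin B (Nmb) and proenkephalin (Penk) fell by 1.59 and 1.46 from levels under 8 CPM, and 20.6% of the exonic bases of Nmb overlap another gene.

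Ligands of the TGF-beta family act on nearby muscle cells and fibroblasts through paired receptors and Smad proteins, and secreted proteins hold them in check. In this list 52.2% of 69 members were called, 29 higher and 7 lower, with a median log2 fold change of 0.29. Among 18 ligands 8 rose. Mstn, myostatin, the restraint on skeletal muscle growth, stood at 0.289, 0.547 and 1.5 CPM in WT and 13.7, 15.2 and 8.88 CPM in DYRK1B-Tg hearts (log2 fold change 4.02, SE 0.44, adjusted p = 4.88e-05), and without WT replicate 3 its log2 fold change was 4.86. Tgfb3 stood at 25.1, 24.7 and 26.5 CPM in WT and 60.7, 52.8 and 67.1 CPM in DYRK1B-Tg hearts (log2 fold change 1.24, SE 0.14, adjusted p = 7.81e-05), and Tgfb1 and Tgfb2 rose by 0.59 and 0.7. Gdf6 rose by 3.03 from under 1 CPM, and Bmp7 fell by 1.23. Of the receptors, Tgfbr1 stood at 23.6, 27.4 and 32.02 CPM in WT and 60.9, 61.5 and 48.8 CPM in DYRK1B-Tg hearts (log2 fold change 1.04, SE 0.12, adjusted p = 7.65e-05) and the activin and myostatin receptor Acvr2b fell by 0.92.

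Of 26 genes for proteins that bind or store these ligands and for Smads 9 rose and 3 fell. Fstl3, which binds activin and myostatin, stood at 9.16, 7.21 and 8.21 CPM in WT and 43.8, 36.1 and 37.4 CPM in DYRK1B-Tg hearts (log2 fold change 2.26, SE 0.17, adjusted p = 3.9e-06), and 47.3% of its exonic bases overlap a neighbouring gene. Fstl1 rose by 1.2 (SE 0.11), the latency protein Ltbp3 by 0.82, and its relative Ltbp2 by 4.16 (3.28, 4.74 and 5 CPM in WT and 101, 49.6 and 83.2 CPM in DYRK1B-Tg hearts). Of 13 targets of the pathway 8 rose and 1 fell. They include Ctgf (77.6, 95.1 and 124 CPM in WT and 894, 499 and 658 CPM in DYRK1B-Tg hearts; 23.2% of its exonic bases overlap another gene) and the feedback inhibitor Pmepa1 (log2 fold change 0.97), while the feedback Smad7 was not called (0.17, adjusted p = 0.282). Fibroblast markers moved with this list. Of 12 such markers 6 rose and 2 fell, and their sum was 2548 to 2847 CPM in WT and 3880 to 4206 CPM in DYRK1B-Tg hearts. Of 10 markers of activated fibroblasts 7 rose and 1 fell, with sums of 243 to 403 and 811 to 1189 CPM. Ltbp2 is in that list, and the part of fibroblasts in the result was not tested.

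Growth factors and their receptors split by family (17 higher and 14 lower of 84). Hbegf, a member of the epidermal growth factor family that is shed from the cell surface, stood at 30.1, 26.2 and 26.2 CPM in WT and 106, 140.3 and 157 CPM in DYRK1B-Tg hearts (log2 fold change 2.29, SE 0.14, adjusted p = 9.62e-07), and Egf rose by 1.17. Fibroblast growth factors went in both directions. Fgf6, a factor of skeletal muscle, stood at 0.289, 0.274 and 0.4 CPM in WT and 5.99, 3.89 and 5.66 CPM in DYRK1B-Tg hearts (log2 fold change 3.98, SE 0.41, adjusted p = 3.13e-05) and Fgf18 rose by 1.41. Fgf16, a factor of the heart muscle cell, stood at 16.1, 15.1 and 13.4 CPM in WT and 4.14, 4.78 and 5.83 CPM in DYRK1B-Tg hearts (log2 fold change -1.59, SE 0.15, adjusted p = 1.69e-05), and Fgf13 fell by 0.71. Igfbp5 rose by 1.76, to 432 to 655 CPM, while Igf2 fell by 0.92, with 64.5% of its exonic bases shared with an overlapping gene.

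Among 24 genes of the PDGF, VEGF, HGF and angiopoietin families 3 rose and 7 fell. Vegfd rose by 1.7 and Pdgfb, a ligand that endothelium sends to pericytes, fell by 0.75. Of 12 endothelial markers none rose and 6 fell, and their sum was 1966 to 2079 CPM in WT and 1599 to 1801 CPM in DYRK1B-Tg hearts. Their part in the result was not tested. In the GDNF system, which guides nerves, 2 ligands rose and 2 receptors fell. Gdnf rose by 2.25 from under 1 CPM and Nrtn by 0.93 from 20.2 ± 2.35 CPM (SD, n = 3). The receptor kinase Ret stood at 15.8, 15.5 and 10.8 CPM in WT and 5.16, 5.31 and 3.74 CPM in DYRK1B-Tg hearts (log2 fold change -1.57, SE 0.21, adjusted p = 0.000217) and its co-receptor Gfra1 fell by 1.42.

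**Figure D4:**
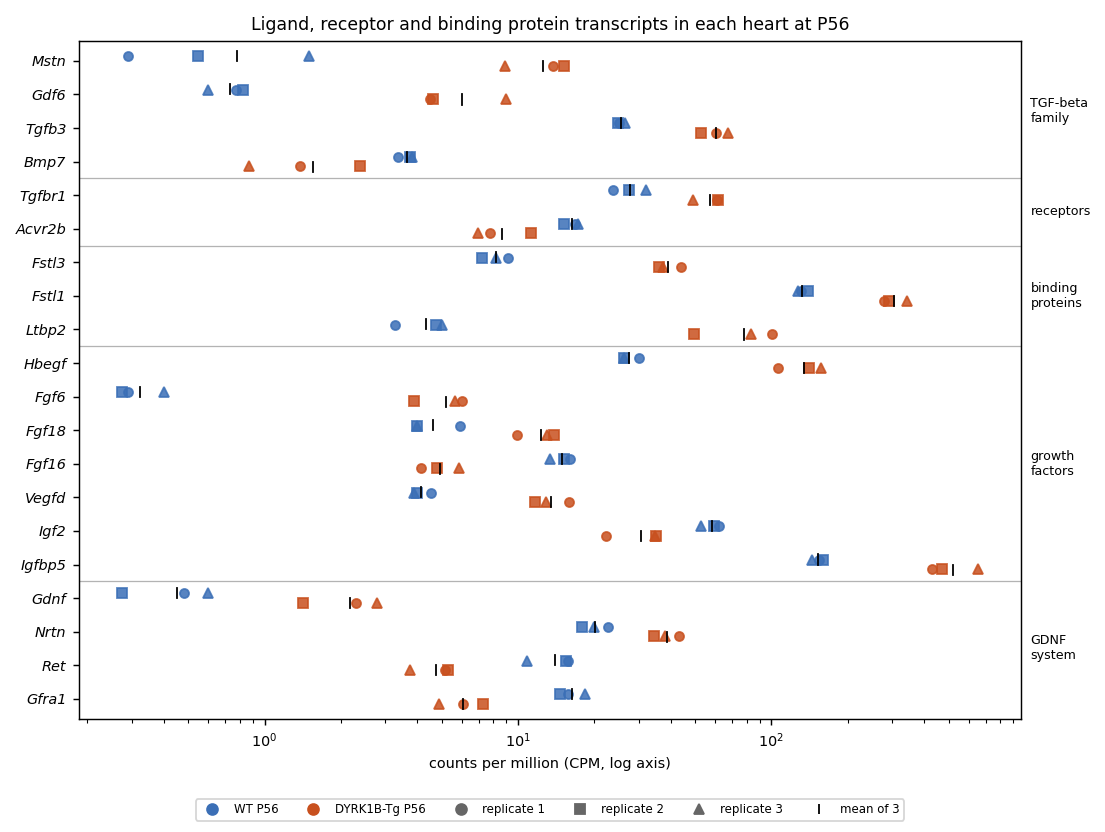
Level in CPM (horizontal log axis) of 20 ligand, receptor and binding protein genes in each WT (blue) and DYRK1B-Tg (orange) heart at P56, with a symbol per replicate and a black tick at the mean of 3. Mstn, Fgf6, Hbegf and Ltbp2 lie higher in all 3 DYRK1B-Tg hearts, and Fgf16, Ret and Gfra1 lie lower in all 3.

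Of 27 inhibitors and targets of Wnt signalling 6 rose and 2 fell. Wif1 and Frzb, secreted proteins that bind Wnt ligands, stood at 1.54, 3.1 and 3.5 CPM in WT and 10.5, 18.2 and 23.9 CPM in DYRK1B-Tg hearts and at 4.72, 6.11 and 5.2 CPM in WT and 27.8, 17.4 and 23.2 CPM in DYRK1B-Tg hearts, respectively. Nkd2, an inhibitor inside the cell, rose by 2.54, and Kremen1, a receptor that lowers Wnt signalling, by 1.02 (SE 0.09). Sfrp5 fell by 1.37, and the pathway's target Axin2 was not called (-0.09, adjusted p = 0.841). Hippo signalling limits growth by holding the co-activators YAP and TAZ out of the nucleus, and 7 of its 22 members rose and 4 fell. Amot, an adaptor that binds YAP, stood at 17.7, 15.2 and 14.5 CPM in WT and 104, 73.6 and 74.4 CPM in DYRK1B-Tg hearts (log2 fold change 2.41, SE 0.14, adjusted p = 3.9e-07), and its relative Amotl2 fell by 0.89. Yap1, Wwtr1 (TAZ) and their partner Tead1 rose by 0.53, 0.46 and 0.46, and their target Cyr61 by 1.75. The receptor Notch3, also a pericyte marker, fell by 0.56 and Hey1, a target of Notch, by 0.6.

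Immune cell markers were not called. The lists for macrophages, neutrophils and mast cells, lymphocytes and red cells had 0 members called of 12, 10, 5 and 8 by edgeR. At an unadjusted p under 0.05 these numbers were 3, 0, 0 and 0, and DESeq2 called 0, 1, 0 and 0. Leaving out 1 library gave 1 call in the macrophage and red cell lists (without WT replicate 1) and in the neutrophil and mast cell list (without DYRK1B-Tg replicate 2). Of 77 cytokine and chemokine genes 13 rose and 8 fell (27.3%). In the interleukin 6 family, Osmr, the oncostatin M receptor, rose by 1.06, the shared receptor Il6st by 0.4 and the kinase Jak2 by 0.66. Tnfrsf12a, the receptor of TWEAK, stood at 28.5, 29.7 and 31.7 CPM in WT and 136, 109.5 and 147 CPM in DYRK1B-Tg hearts (log2 fold change 2.12, SE 0.13, adjusted p = 5.94e-07). The chemokine Cxcl12 fell by 0.75 and Ccl11 by 1.57.

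Genes of the complement and coagulation list were called at about the background share (23.9% of 46). Masp1, a protease that starts the lectin pathway of complement, stood at 17.8, 13.6 and 22.3 CPM in WT and 123, 84.9 and 104 CPM in DYRK1B-Tg hearts (log2 fold change 2.54, SE 0.19, adjusted p = 3.36e-06), and clusterin (Clu), which blocks the final complex, rose by 1.6 with the highest value in DYRK1B-Tg replicate 1. The tissue factor inhibitor Tfpi stood at 97.1, 103 and 107 CPM in WT and 48.7, 48.9 and 45.3 CPM in DYRK1B-Tg hearts (log2 fold change -1.1, SE 0.09, adjusted p = 4.49e-06), and the protease receptors F2r and F2rl1 rose by 1.06 and 2.65. H2-K1 stood at 521, 829.7 and 262 CPM in WT and 248, 231 and 204 CPM in DYRK1B-Tg hearts (log2 fold change -1.24, SE 0.28, adjusted p = 0.00687), and B2m, its partner chain, at 1251, 1540 and 681 CPM in WT and 646, 591 and 518 CPM in DYRK1B-Tg hearts (log2 fold change -0.98, SE 0.24, adjusted p = 0.00995). WT replicate 3 lay nearest to the DYRK1B-Tg hearts for both, without overlap. The peptide transporter Tap2 and the factor Irf1 fell by 0.66 and 0.6. The antigen presentation list had 8 members called of 53, and this count ranged from 4 (WT replicate 2 left out) to 12 (WT replicate 3 left out). It was 5 when WT replicate 1 or DYRK1B-Tg replicate 3 was left out, and 5 in the P56 libraries alone. H2 genes are alike in sequence, so reads may be split between them.

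Glucose genes were called as often as all genes (25.7% of 70), with changes between isoforms. The chains of lactate dehydrogenase moved in opposite directions: Ldha stood at 878, 851 and 776 CPM in WT and 1349, 1274 and 1421 CPM in DYRK1B-Tg hearts (log2 fold change 0.69, SE 0.09, adjusted p = 0.000167) and Ldhb at 2119, 1963 and 2065 CPM in WT and 1396, 1582 and 1486 CPM in DYRK1B-Tg hearts (log2 fold change -0.46, SE 0.07, adjusted p = 0.000542). Among phosphofructokinases, Pfkp rose by 1.11 and the muscle form Pfkm was not called (0.01). Pfkfb1, which makes and degrades the activator of that step, stood at 21.6, 21.6 and 18.5 CPM in WT and 5.07, 6.46 and 5.92 CPM in DYRK1B-Tg hearts (log2 fold change -1.82, SE 0.15, adjusted p = 7.36e-06). Of the transporters, Slc2a12 rose by 1.54, the insulin-sensitive Slc2a4 fell by 0.34 and Slc2a1 was not called (0.05). Hk2, the insulin-responsive hexokinase, fell by 0.4, while Ppp1r3c, which brings a phosphatase to glycogen, rose by 1.15 (191, 182 and 298 CPM in WT and 637, 519.9 and 326 CPM in DYRK1B-Tg hearts). In AMPK, the energy-sensing kinase, the beta subunits moved apart, with Prkab2 higher by 0.88 and Prkab1 lower by 0.57. The insulin, AMPK and mTOR list had 14 of 40 members called, and 8 without WT replicate 2 or without WT replicate 3.

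Amino acid genes were called in 40% of 60 members, with 19 higher and 5 lower. Atf3, a stress-induced factor downstream of Atf4, stood at 5.88, 4.47 and 3.7 CPM in WT and 27.1, 19.7 and 38.3 CPM in DYRK1B-Tg hearts (log2 fold change 2.6, SE 0.27, adjusted p = 3.83e-05), and Atf4 rose by 0.47. Of 22 amino acid transporters 9 rose and 1, Slc38a1, fell. Slc38a2 stood at 217, 254 and 262 CPM in WT and 655, 461 and 573 CPM in DYRK1B-Tg hearts (log2 fold change 1.21, SE 0.15, adjusted p = 0.000155) and Slc38a1 at 24.3, 26.6 and 19.4 CPM in WT and 7.09, 8.5 and 11.2 CPM in DYRK1B-Tg hearts (log2 fold change -1.39, SE 0.14, adjusted p = 3.57e-05). Phgdh, which opens serine synthesis, and Pycr1, an enzyme of proline synthesis, rose by 1.22 and 1.49 from under 3 CPM. Shmt2, the mitochondrial enzyme that feeds one-carbon metabolism, fell by 0.54. Eif4ebp1, the brake on translation that mTOR controls, rose by 0.69 (SE 0.06).

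Antioxidant and detoxification genes moved in both directions (16 higher and 15 lower of 93). Gpx1, a glutathione peroxidase, stood at 79.4, 79.99 and 76.2 CPM in WT and 184, 173 and 178 CPM in DYRK1B-Tg hearts (log2 fold change 1.19, SE 0.09, adjusted p = 3.15e-06). Nox4, an oxidase that makes hydrogen peroxide, stood at 1.45, 1.19 and 1.1 CPM in WT and 7.83, 5.22 and 6.44 CPM in DYRK1B-Tg hearts (log2 fold change 2.38, SE 0.26, adjusted p = 4.38e-05). The metallothionein Mt2 rose by 2.38 and Mt1 by 1.09, both higher in all 3 DYRK1B-Tg hearts, though the pair is alike in sequence and 73.5% of the exonic bases of Mt2 overlap another gene. Nfe2l2, the factor NRF2, rose by 0.54. Aldh2, which clears aldehydes, fell by 0.54. Among lipid genes (14 higher and 7 lower of 85) Apod, an apolipoprotein, stood at 12.3, 11.9 and 8.51 CPM in WT and 88.3, 42.3 and 57.2 CPM in DYRK1B-Tg hearts (log2 fold change 2.52, SE 0.24, adjusted p = 1.95e-05), and the lipid droplet gene Cidea and the desaturase Scd1 rose by 1.18 and 0.75. Of 31 iron and heme genes 3 rose and 6 fell. The transferrin receptor Tfrc stood at 53.6, 58.8 and 53.8 CPM in WT and 110.5, 196 and 125 CPM in DYRK1B-Tg hearts (log2 fold change 1.38, SE 0.24, adjusted p = 0.00123), and the ferritin chain Fth1 fell by 0.29.

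Genes of the ubiquitin system, which breaks down proteins, were called in 15.9% of 69 members, below the 25.7% of all genes tested. Genes of autophagy and the lysosome were called in 34.8% of 69. Of 31 muscle ubiquitin ligases and atrophy genes 4 rose and 5 fell, among them the membrane repair protein Trim72, which rose by 1.0 (529.7, 447 and 430.4 CPM in WT and 954, 909.8 and 947 CPM in DYRK1B-Tg hearts; 27.6% of its exonic bases overlap another gene), and Asb15, which fell by 1.04. The ubiquitin list had 11 members called, and 7 without WT replicate 2. Lysosome genes rose more often (10 higher and 3 lower of 36): Lamp2, a lysosomal membrane protein, rose by 0.48. The lysosomal proteins Psap and Tpp1 fell by 0.54 and 0.85. Of 33 autophagy genes 5 rose and 6 fell (7 called without DYRK1B-Tg replicate 1). Wipi1, which acts on the forming membrane, rose by 0.71 (SE 0.07), and the initiating kinase Ulk1 fell by 0.62 (SE 0.08).

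Genes known from skeletal muscle were called in 47.7% of 44 tested members, with 16 higher, 5 lower and a median log2 fold change of 0.44. Defining genes of skeletal fibres among the 65 listed did not pass the filter on low counts, such as the myosins Myh1, Myh2 and Myh4, the release channel Ryr1 and the factors Myod1 and Myog. Sypl2, a membrane protein of the skeletal muscle triad, rose by 5.0, and Jsrp1, another triad protein, by 2.23. Myot, myotilin of the Z-disc, stood at 54.6, 63.4 and 77.3 CPM in WT and 360.5, 225 and 276 CPM in DYRK1B-Tg hearts (log2 fold change 2.14, SE 0.16, adjusted p = 2.67e-06). Xirp2, an actin-binding repeat protein of the intercalated disc and the muscle end, stood at 549, 484 and 556 CPM in WT and 3506, 1801 and 1868 CPM in DYRK1B-Tg hearts (log2 fold change 2.17, SE 0.21, adjusted p = 2.22e-05). Ankrd2, a stretch-induced protein of slow muscle, stood at 0.482, 0.274 and 0.701 CPM in WT and 4.88, 7.26 and 5.4 CPM in DYRK1B-Tg hearts (log2 fold change 3.58, SE 0.43, adjusted p = 0.000101), and the muscle protease Capn3 rose by 1.99. Other members fell: the kinase Mylk4 stood at 635, 617 and 630.5 CPM in WT and 173, 223 and 161 CPM in DYRK1B-Tg hearts (log2 fold change -1.76, SE 0.20, adjusted p = 7.32e-05), and Ky, a protein of the Z-disc, fell by 2.84. Tnni2, the troponin I of fast fibres, fell by 1.5 from under 3 CPM, and Mylpf and Tnnt3, fast fibre genes outside the naming rule, stood below 1 CPM in all 6 hearts.

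Synaptic and neuronal genes were called in 37.5% of 64 members, with 16 higher and 8 lower. In the P56 libraries alone 46 of them were tested, and 11 were called higher and 6 lower. Leaving out 1 library gave 16 to 21 called. Shisa4, a small membrane protein, stood at 8.1, 6.47 and 7.11 CPM in WT and 64.9, 63.2 and 75.7 CPM in DYRK1B-Tg hearts (log2 fold change 3.23, SE 0.13, adjusted p = 5.08e-08) and at 12.9 to 17.04 CPM in the P3 libraries. The neuronal genes Slc17a7 and Sncb are not members of this list and are not in its counts. Slc17a7, the vesicular glutamate transporter of neurons, stood at 25.2, 20.7 and 26.02 CPM in WT and 116, 150.5 and 179 CPM in DYRK1B-Tg hearts (log2 fold change 2.63, SE 0.23, adjusted p = 8.62e-06). Its P3 libraries held 3.84 to 9.03 CPM, below all P56 hearts. Sncb, beta-synuclein, was not counted in any WT heart and stood at 4.14, 5.58 and 3.57 CPM in the DYRK1B-Tg hearts, at least 46.3-fold higher when WT is set to a floor of 3 counts over the group. It stood at 1.84 to 3.23 CPM in all 6 P3 libraries. Cplx1, a gene of vesicle release, was counted in no WT heart and stood at 0.266 to 0.368 CPM in DYRK1B-Tg hearts and 0.418 to 0.835 CPM at P3. Cplx1 did not pass the filter in the P56 libraries alone. The part of the rod transcripts in the Sncb and Cplx1 differences was not tested. Syt7, a calcium sensor of vesicle fusion, fell by 1.2 (SE 0.12) from 86.5 ± 6.85 CPM, and Syt12 rose by 1.36. At P3 they stood at 17.7 to 24.3 and 1.36 to 2.67 CPM. Of 9 markers of Schwann cells and nerves 2 rose and 3 fell (3 called without WT replicate 2), with sums of 41.3 to 45.2 CPM in WT and 52.1 to 60.9 CPM in DYRK1B-Tg hearts.

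**Figure D5:**
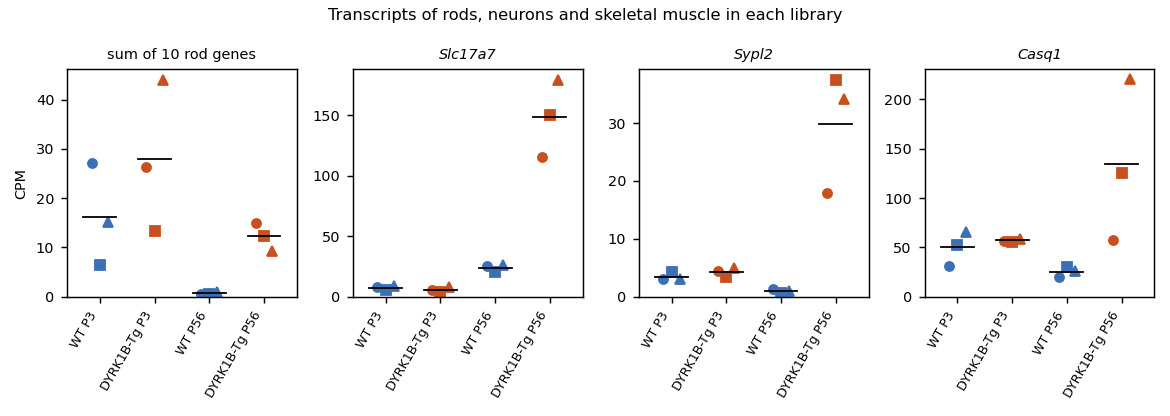
Level in CPM (vertical axis, linear) of the sum of 10 rod genes and of Slc17a7, Sypl2 and Casq1 in each of the 12 libraries, with a symbol per replicate and a line at the mean of 3. The rod sum lies near 0 only in WT at P56, and Slc17a7 and Sypl2 are highest in DYRK1B-Tg hearts at P56. P3 libraries are grouped by their labels.

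Axon guidance molecules, which also steer vessels and heart cells, had 13 members higher and 10 lower of 62. Ephrins and their receptors leaned lower (2 higher and 6 lower of 17), with Epha4 at 33.2, 42.5 and 34.3 CPM in WT and 12.3, 15.9 and 14.3 CPM in DYRK1B-Tg hearts (log2 fold change -1.37, SE 0.26, adjusted p = 0.00226). Plxnb1, a semaphorin receptor, fell by 1.18, while the ligand Sema3c and the netrin receptor Unc5b rose by 1.06 and 0.88.

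Genes of the cytoskeleton rose in 42 and fell in 5 of 123 cases (38.2% called). Zyx, zyxin of adhesion sites, stood at 130.1, 139.9 and 124 CPM in WT and 298, 281 and 291 CPM in DYRK1B-Tg hearts (log2 fold change 1.14, SE 0.06, adjusted p = 2.65e-07), among the tightest changes in the list. Synpo2l, an actin-bundling protein of the Z-disc, stood at 239, 234 and 224 CPM in WT and 895, 604 and 741 CPM in DYRK1B-Tg hearts (log2 fold change 1.69, SE 0.13, adjusted p = 3.25e-06), and Abra, an activator of serum response factor, rose by 1.98. Among 46 microtubule genes 14 rose and 1 fell: Tubb2a, Map4 and the motor Kif5b rose by 1.11, 0.62 and 1.13, and Ttll1, an enzyme that adds glutamate to tubulin, fell by 1.16. Kif5b was highest in DYRK1B-Tg replicate 1 (461, 256 and 265 CPM). Acta2, the actin of smooth muscle and activated fibroblasts, fell by 1.29, from 301, 281 and 139.8 to 74.8, 97.5 and 123 CPM. Integrins rose in 12 of 29 cases and fell in 1, among them Itga5 (by 0.88, SE 0.07) and Itgbl1 (by 2.07). At the desmosome, which couples heart muscle cells, Dsp rose by 0.97 and Dsg2 fell by 0.54. Of 10 annexins 6 rose and 1 fell, and galectin 4 (Lgals4) stood at 45.6, 49.2 and 51.2 CPM in WT and 16.9, 16.8 and 10.4 CPM in DYRK1B-Tg hearts (log2 fold change -1.73, SE 0.18, adjusted p = 3.94e-05).

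Secreted proteases and their inhibitors were called in 49% of 49 members, with 18 higher and 6 lower. Adamts8 stood at 0.771, 1.64 and 1.3 CPM in WT and 12.1, 9.82 and 17.9 CPM in DYRK1B-Tg hearts (log2 fold change 3.41, SE 0.41, adjusted p = 9.69e-05). Adamtsl2, a matrix protein that tunes TGF-beta, stood at 14.3, 19.2 and 20.01 CPM in WT and 126, 58.8 and 85.2 CPM in DYRK1B-Tg hearts (log2 fold change 2.33, SE 0.24, adjusted p = 3.73e-05), and Serpinf1, an inhibitor of vessel growth, rose by 1.7. Among 17 serpins 9 rose and 2 fell (7 called without WT replicate 1). Serpina3n stood at 15.5, 10.9 and 17.01 CPM in WT and 339, 20.9 and 28.04 CPM in DYRK1B-Tg hearts, so its fold change rests on DYRK1B-Tg replicate 1, without which its log2 fold change was 0.75 (adjusted p = 0.343). Its call was also lost without any 1 WT heart (adjusted p = 0.0707 to 0.0943) and in the P56 libraries alone (adjusted p = 0.0642), and DESeq2 gave it no adjusted p.

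Transcription and chromatin factors were called in 31.8% of 107 members, with 16 higher and 18 lower. Hand2, a factor of the developing ventricle, stood at 98.7, 83.3 and 104 CPM in WT and 326, 220.0 and 221 CPM in DYRK1B-Tg hearts (log2 fold change 1.43, SE 0.17, adjusted p = 8.91e-05). Meox1, a factor of activated fibroblasts, rose by 2.01 and Runx2, of bone, by 1.82 from under 2 CPM. Mef2a and Mef2d, factors of muscle genes, fell by 0.44 and 0.42, while Myocd, a co-activator of serum response factor, rose by 0.72. The methyltransferase Setd7 rose by 0.86 (SE 0.08) and the deacetylase Hdac11 fell by 0.72 (SE 0.10).

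In the cell cycle list 14 of 81 genes were called (17.3%). Of 45 genes of mitosis and DNA replication 1 rose and 1 fell (4 called without DYRK1B-Tg replicate 2), while of 36 G1 cyclins, inhibitors and pocket proteins 6 rose and 6 fell (33.3%). The proliferation marker Mki67 was not called (8.31 to 11.7 CPM in WT and 9.12 to 12.8 CPM in DYRK1B-Tg hearts). Cenpf, a kinetochore protein, stood at 22.4, 23.8 and 20.1 CPM in WT and 7.74, 6.9 and 5.4 CPM in DYRK1B-Tg hearts (log2 fold change -1.73, SE 0.18, adjusted p = 4.14e-05), and Cenpa rose by 0.79. Cyclin D2 (Ccnd2) stood at 194, 226 and 195 CPM in WT and 82.1, 66.9 and 72.96 CPM in DYRK1B-Tg hearts (log2 fold change -1.47, SE 0.14, adjusted p = 1.36e-05), and the cell cycle inhibitor Cdkn1c fell by 1.02, with 30.7% of its exonic bases overlapping an antisense gene. Genes of the circadian clock follow the hour of collection, which is not given, so their differences cannot be told apart from it. Of 24 tested 5 rose and 3 fell (5 called without WT replicate 2). Arntl stood at 1.25, 1.19 and 2 CPM in WT and 16.1, 3.81 and 3.22 CPM in DYRK1B-Tg hearts (log2 fold change 2.37, SE 0.63, adjusted p = 0.0157), with DYRK1B-Tg replicate 1 far above the others. Its log2 fold change was 1.24 without that heart, and its call was lost without WT replicate 1 (adjusted p = 0.0568) or WT replicate 2 (adjusted p = 0.0621). Nfil3, a repressor tied to the clock, rose by 1.46, and Cry2, one of its core repressors, fell by 0.52.

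Proteins of the ribosome were called in 9 of 81 cases, and in 2 to 4 cases without any 1 of WT replicates 2 and 3 or the DYRK1B-Tg hearts. Without the filter 4 were called, and in the P56 libraries alone 5. Rpl3l, the striated muscle form of ribosomal protein L3, had the lowest log2 fold change of the list and stood at 301, 303 and 322 CPM in WT and 169, 208 and 228 CPM in DYRK1B-Tg hearts (log2 fold change -0.62, SE 0.10, adjusted p = 0.000965), and Rpl3 rose by 0.34 (adjusted p = 0.0258), a call lost without any 1 heart other than DYRK1B-Tg replicate 3 (adjusted p = 0.051 to 0.107) or in the P56 libraries alone (adjusted p = 0.0537). Translation factors and tRNA synthetases had 16 members higher and 1 lower of 51. That count of 17 called fell to 10 when WT replicate 1 or DYRK1B-Tg replicate 3 was left out, to 7 when DYRK1B-Tg replicate 1 was, and to 6 for WT replicates 2 and 3. Creatine and purine genes were called in 6 of 32 cases (3 without DYRK1B-Tg replicate 2), and Ckm, the muscle creatine kinase, fell by 0.61 (3169, 2945 and 3011 CPM in WT and 1780, 2104 and 2095 CPM in DYRK1B-Tg hearts).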

How the data were processed

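RNA sequencing was done on 12 mouse heart libraries, of which 6 are compared here. The authors deposited expected counts per gene and library with no normalization recorded, per the file headers, and part of the values hold decimals. The submitters' processing notes list HISAT2 2.0.4, STAR 2.3.0, DESeq2 and the builds mm8 and mm9 with no role. The labels name Illumina procedures for the libraries and the design text names BGISEQ-500. The strand setting and the treatment of multiply mapped reads are not given in the sources used here. A joined table was not used, since it repeats the single files. Totals at P56 were 11174527 to 12099794 counts in WT and 12760002 to 13231968 in DYRK1B-Tg libraries, and 3 libraries a group limit the precision.

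Expected counts were rounded to whole numbers, filtered with filterByExpr on the 4 groups, scaled with TMM and fitted in 1 quasi-likelihood model of all 12 libraries with a mean per group (edgeR 4.0.16, R 4.3.3). This left 8 residual degrees of freedom. Benjamini-Hochberg adjustment ran over every tested gene, and genes with an adjusted p-value under 0.05 were called. SE is the absolute log2 fold change divided by the square root of F. The fit was tested on simulated data. Gene lists and members were chosen with earlier results of these data known. The rule for naming took Dyrk1b, 20 genes at each end of the fold changes (called, at least 1 CPM, groups apart), and from each list up to 8 called members with the lowest p and up to 4 others with the highest level. Not all of these are described, and some results are not reported here. Further genes, picked with their values in view, are Acta2, Acvr2b, Adcy8, Adrb1, Ankrd2, Atf4, Axin2, Bag3, Bmp7, Casq2, Ccl11, Cplx1, Cxcl12, Ddx3y, Dnajb6, Dnajc7, Dsp, Edn1, Egf, Epha4, Gdf6, Gdnf, Gfra1, Grk5, Gucy1a1, Hcn2, Hcn3, Hcn4, Hey1, Hk2, Hsf1, Hspa12b, Hspa1a, Hspa1b, Hspa8, Hsph1, Igf2, Itgbl1, Jsrp1, Kcnd2, Kcnd3, Kcne1, Kif5b, Ltbp2, Map4, Mef2d, Mki67, Mt1, Mt2, Myh1, Myh2, Myh4, Mylpf, Myocd, Myod1, Myog, Notch3, Nrl, Nrtn, Osmr, Pdc, Pde1c, Pde6a, Pde6b, Pde7a, Pdgfb, Penk, Pfkm, Phgdh, Prkar1a, Prph2, Pycr1, Rbp3, Rcvrn, Ret, Rgs5, Rgs7, Ryr1, Sag, Serpina3n, Sfrp5, Slc17a7, Slc2a1, Slc2a4, Smad7, Tgfb1, Tgfb2, Tnni2, Tnnt3, Trdn, Tubb2a and Tulp1. Promoter sequences come from RefSeq (GRCm38.p6), and overlaps of exons, of at least 20% of a gene's exonic bases, from GENCODE vM21.

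Alternatives were RLE size factors, no filter, the P56 libraries alone, DESeq2 1.42.0, a 2-fold minimum, leaving out the 10 most abundant genes, a replicate block and each replicate left out. A fit of unrounded counts was added after the data were seen. Replicate numbers did not pair libraries (correlations of same-numbered deviations from -0.09 to -0.015).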

Additional observations from a re-analysis of the deposited data

How the results depend on the processing

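Against 2008 genes higher and 1640 lower, the alternatives gave 1916 and 1779 with RLE size factors, 1786 and 1650 without a filter, 1729 and 1355 in the P56 libraries alone, 2006 and 1639 without the 10 most abundant genes, 1963 and 1744 with DESeq2 and 2013 and 1644 with unrounded counts. A 2-fold minimum left 593 and 210. Leaving out 1 library at P56 gave 1491 to 1776 higher and 1331 to 1579 lower. With the replicate block 1827 and 1453 genes were called, but the replicate numbers are only names here, so this is no paired analysis. In none of these fits was a gene called in the direction opposite to the one reported. Of 218 called genes named in the text, 210 kept their call in every fit that tested them, the 2-fold minimum aside, and the losses of the others stand beside them above except those of Pdc, Nrl and Rcvrn, whose values are not printed, and those under the replicate block, where the adjusted p was 0.0562 for Hcn4 and 0.0652 for Serpina3n and 4 ribosomal proteins were called. Among the 210, Tulp1 and Cplx1 were not tested in the P56 libraries alone. The counts for the ribosome, translation and antigen presentation lists depended on single libraries. With 3 hearts a group, differences near 1.5-fold in low genes can be missed. Genes at 0 in WT have no fitted fold change of use, and counting limits the values of genes below 1 CPM.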

Other observations

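Some of the highest and lowest fold changes belong to genes of no list above. Chodl, a membrane lectin of muscle and motor neurons, stood at 0, 0.0912 and 0 CPM in WT and 2.3, 2.04 and 3.4 CPM in DYRK1B-Tg hearts (adjusted p = 0.00063), which is 1 count in WT against 87 in DYRK1B-Tg hearts, a ratio of 81.0 per library size with an exact 95% interval of 14.2 to 3240 for counting error only. Aqp8, a water and hydrogen peroxide channel, stood at 1.64, 0.456 and 0.701 CPM in WT and 24.4, 26.7 and 22.8 CPM in DYRK1B-Tg hearts (log2 fold change 4.72, SE 0.31, adjusted p = 1.31e-06; log2 fold change 5.39 without WT replicate 1). Lrp8, a reelin receptor, rose by 4.37 (0.964, 1.09 and 0.801 CPM in WT and 32.8, 11.9 and 15.2 CPM in DYRK1B-Tg hearts), and was highest in DYRK1B-Tg replicate 1. At the other end, Rtn4r, the Nogo receptor, stood at 25.4, 29.8 and 10.4 CPM in WT and 0.829, 3.27 and 1.48 CPM in DYRK1B-Tg hearts (log2 fold change -3.55, SE 0.47, adjusted p = 0.000213; log2 fold change -4.25 without DYRK1B-Tg replicate 2), and Mr1, which presents vitamin metabolites to T cells, at 15.2, 15.9 and 17.6 CPM in WT and 3.04, 4.07 and 3.83 CPM in DYRK1B-Tg hearts (log2 fold change -2.15, SE 0.17, adjusted p = 5.12e-06). Among genes best known from epithelia, Ppl fell by 1.96 and the lipid transporter Abca12 by 2.17, each without overlap of the groups.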
